A study of Mus musculus with 15 samples.

Results

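The regions described here are runs of at least 3 directly adjacent CGs, that is uninterrupted CGCGCG sequence, on the 19 mouse autosomes. They were found from the listed CG positions alone, as CGs that follow each other at a distance of exactly 2 bases, and no read count entered their choice. There were 40134 such runs among 19965595 chains of CGs of any length, beside 312887 adjacent pairs (CGCG) and 19612574 single CGs with no directly adjacent CG. The runs held 145275 of the 20383623 autosomal CGs, or 0.713%, of which 65007 were inner CGs with a CG directly on both sides. The first CG of a run is the leftmost and the last the rightmost on the plus strand of mm10, so first and last carry no relation to the direction of a gene. A CG run reads the same on both strands.

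In mammalian DNA the cytosine of a CG is the usual target of DNA methyltransferases, and TET dioxygenases oxidize 5-methylcytosine to 5-hydroxymethylcytosine (5hmC). Methylated CGs mutate easily and have been lost from most of the genome, whereas CGs within CG islands, many of which lie at promoters, are mostly unmodified and stay dense. Long alternations of C and G are uncommon outside CG islands and simple repeats.

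The DNA came from E14TG2a, a line of mouse embryonic stem cells grown on gelatin with LIF and fetal bovine serum, without feeder cells or any further treatment named in the labels. 5hmC was mapped by hmTOP-seq, in which T4 β-glucosyltransferase (BGT) puts an azide-bearing glucose on 5hmC, an oligonucleotide is tethered to it, and the polymerase starts a read at or near the labeled cytosine, from 500, 50 and 5 ng of DNA with 2 technical replicates each and 2 control libraries without BGT per input. Unmodified CGs (uCGs) were mapped by uTOP-seq from 300 ng of DNA in 3 replicates, with the strand given. All libraries come from this cell line and nothing in the labels places the replicates in separate cultures, so p-values here measure technical spread only. The labeled libraries placed 87385 and 81006 reads on the runs from 500 ng of input DNA, 52581 and 49089 from 50 ng, and 30578 and 32331 from 5 ng. The uCG libraries placed 102554, 86222 and 73255 reads on them, and the 6 control libraries between 3 and 25. The hmCG counts merge both strands. The study's methods keep reads that begin at the CG itself for phage lambda DNA, on which the processing of these 5hmC libraries was modelled. The exceptions named for the 5hmC libraries are read length, genome build and mapping quality. The start rule is not among them, though it is not restated for these libraries. How uCG reads at directly adjacent CGs were assigned is not given in the sources used here.

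Sequences of 8 runs are shown because the comparisons below turn on them. Each is taken from the plus strand of GRCm38, 5′ to 3′, with the CG run in capitals and its neighbouring bases in lower case. They are, in order, the run with the most 5hmC reads per CG and a run whose first CG held most of its reads. Next are a run with 5hmC reads at only its first CG, and 3 runs with none at the first CG. These runs, of 3, 7 and 10 CGs, had reads at the last and at inner CGs. Runs with uCG reads on only the plus or only the minus strand close the list.
chr17:39847882-39847887: tccggggctgcaCGCGCGctacactgactg
chr17:39843186-39843191: cgagcgctgcccCGCGCGcacttttctcag
chr4:153679345-153679350: gaggcaatgggcCGCGCGgctgctgtccat
chr2:34913430-34913435: cgcggcactgggCGCGCGgggccgggcggg
chr16:38408584-38408597: cacacacaCGCGCGCGCGCGCGctgcagcc
chr11:115600883-115600902: acaggCGCGCGCGCGCGCGCGCGCGggcgc
chr3:5860820-5860825: aagcgcccgtccCGCGCGttagatgcagaa
chr6:31216874-31216881: tccgccccgggCGCGCGCGggagggggtag
The bases beside a run differ from those beside a single CG. Of the runs, 44.5% had G before the first CG, against 26% of single CGs with the same number of CGs within 250 bp, and 44.5% had C after the last CG, against 26.1%.

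Most runs were short. Exactly 3 CGs made up 28501 runs (71%), 4 CGs 5890 (14.7%), 5 CGs 2526 (6.29%) and 6 or more 3217, and the longest runs held 17 and 18 CGs. Short and long runs lay in different sequence. Runs of 3 CGs had a median of 27 other CGs within 250 bp, and 41.5% were within 1 kb of a transcription start site (TSS) of a protein-coding gene. Of runs of 6 or more CGs, 8.42% were that close to a TSS, 97.4% lay in the soft-masked repeats of the reference, and 93.3% had the letters CACACA or TGTGTG within 20 bases of an end. The same letters stood near 21.9% of runs of 3, 60.4% of runs of 4 and 82.8% of runs of 5, against 8.20% of adjacent pairs. Over all runs, 52.7% were soft-masked and 37.1% had these CA or TG repeats near, against 20.2% and 3.32% of single CGs matched for the number of CGs within 250 bp. By gene part, 35.7% of runs were within 1 kb of a TSS (38.5% of matched single CGs), 25.1% in introns (23.0%), 2.16% in coding exons (6.53%) and 36.2% outside genes (30.6%). Runs near gene starts and runs in simple repeats are given apart below where their values differ.

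The first question was whether CGs within a run carry as much 5hmC signal as single CGs with equally many CGs around them. They carried less at every place. In the 500-ng libraries the first CG of a run had 0.715 and 0.661 reads, the inner CGs 0.470 and 0.437, and the last CG 0.701 and 0.650. In the 50-ng libraries the first CG had 0.440 and 0.410 reads, the inner CGs 0.276 and 0.251, and the last CG 0.423 and 0.407. Matched single CGs had 1.67 and 1.61 reads for the first CG and 2.0 and 1.94 for the inner CGs at 500 ng, and 1.13, 1.08, 1.36 and 1.29 at 50 ng. As a ratio to matched single CGs over the 4 libraries, the first CG was at 0.402 ± 0.022 (SD, n = 4), the inner CGs at 0.214 ± 0.019 and the last CG at 0.393 ± 0.022. On the log2 scale these are -1.32, -2.23 and -1.35, below 0 in 4 of 4 libraries (two-sided exact sign-flip permutation test, for each the smallest p that 4 libraries allow, which is above 0.05). On each of the 19 autosomes the ratio was below 1 at every place at both inputs.

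**Figure D1:**
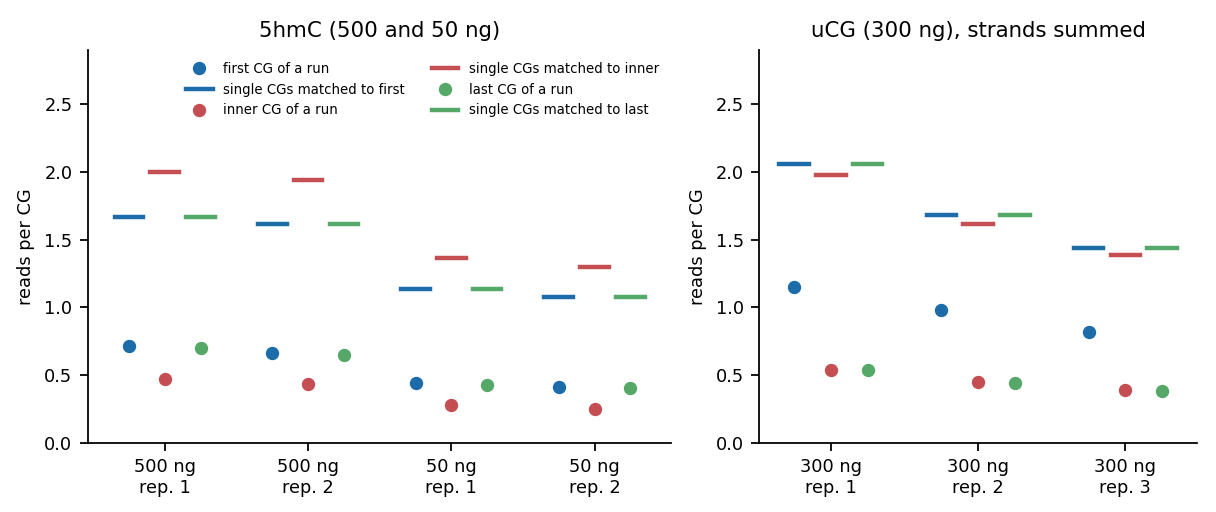
Reads per CG at the first, inner and last CG of runs (points) and at single CGs with the same number of other CGs within 250 bp (short lines of the same color), in each 5hmC library of 500 and 50 ng (left) and each uCG library (right, strands summed). All points lie below their lines, the inner point is lowest in each 5hmC library, and only the uCG libraries separate the first from the last CG.

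Over all runs together, the ends were higher than the inner CGs. The mean of first and last CG exceeded the inner CGs by 0.63 ± 0.056 on the log2 scale (1.55-fold, SD over n = 4 libraries, higher in 4 of 4, again the smallest p that the exact permutation test allows). The difference lay between 0.43 and 0.79 on the 19 autosomes at 500 ng and between 0.54 and 0.92 at 50 ng. Runs of 6 or more gave 17148 of the 65007 inner CGs but 3217 of the 40134 first CGs. The value over all runs therefore mixes lengths. In runs of exactly 3 CGs, where each run gives 1 CG to each place, the difference was 0.44. In runs of 4, first, inner and last CG had 0.433, 0.371 and 0.425 reads as means of the 4 libraries. In runs of 5 they had 0.375, 0.339 and 0.353. At replicate 2 of 500 ng the inner CGs of runs of 5, at 0.418, were above both ends, at 0.405 and 0.413. Counted over all runs as the share of CGs with at least 1 read in place of reads per CG, the difference was 0.27. First and last CG differed by 0.03 (1.02-fold, log2 0.03 and 0.02 in replicates 1 and 2 of 500 ng, 0.06 and 0.01 in those of 50 ng), and at 500 ng the first was lower on 9 autosomes and higher on 10.

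The low 5hmC coverage went with the sequence around a run. Outside soft-masked sequence and with no CA or TG repeat near, the first CG was at 0.89 ± 0.040 of single CGs of the same kind (mean ratio and SD, n = 4 libraries), the inner CGs at 0.650 ± 0.047 and the last CG at 0.855 ± 0.040. Within soft-masked sequence but with no CA or TG repeat near, the values were close to these, at 0.843 ± 0.041, 0.631 ± 0.055 and 0.795 ± 0.065. With a CA or TG repeat near, they fell to 0.368 ± 0.0095, 0.257 ± 0.021 and 0.379 ± 0.0092 in soft-masked sequence and to 0.369 ± 0.043, 0.306 ± 0.046 and 0.462 ± 0.025 outside it. The single CGs set against these runs also had such a repeat near. In each of these 4 kinds of sequence the inner CGs had the lowest ratio and no ratio reached 1. Short reads place less well in repeats, and the part of read placement in these values was not tested.

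**Figure D2:**
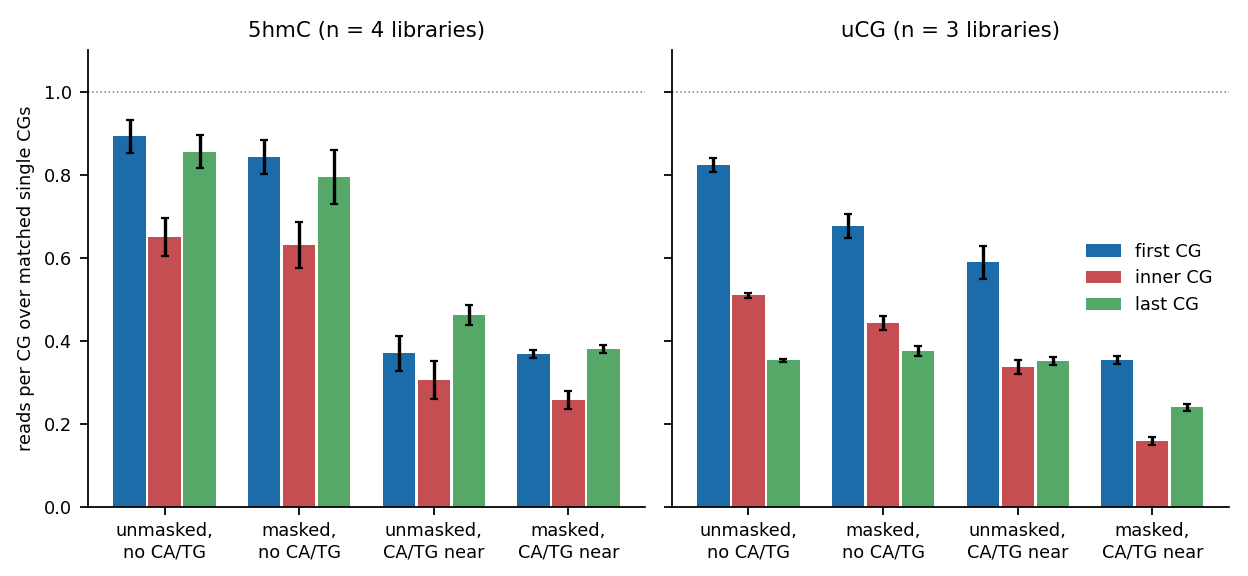
Ratio of reads per CG at the first, inner and last CG of runs to single CGs of the same kind with the same number of CGs within 250 bp, by soft-masking and by a CA or TG repeat within 20 bases. Bars are means and whiskers SDs over 4 libraries of 5hmC (left) and 3 of uCG (right), and the dotted line marks equality. Runs near a CA or TG repeat have the lowest 5hmC bars whether soft-masked or not, and the inner bar is below the first in each kind of sequence.

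Coverage fell as runs grew longer. Adjacent pairs had 1.24 5hmC reads at each CG as a mean of the 4 libraries, and their ratio to matched single CGs was 0.860 ± 0.041 for the first and 0.863 ± 0.041 for the last CG. In runs of 3 the ratio was 0.524, 0.385 and 0.511 for first, inner and last CG. It was 0.290, 0.247 and 0.286 in runs of 4, 0.194, 0.173 and 0.181 in runs of 5, and 0.120, 0.0753 and 0.127 in runs of 6 or more. Since long runs are mostly soft-masked, the same values were taken against single CGs matched also on the soft-mask. The ratio was then 0.735, 0.539 and 0.717 in runs of 3 and 0.258, 0.169 and 0.276 in runs of 6 or more. The fall with length was thus smaller as a fold change, and its order was kept. Long runs also had a CA or TG repeat near more often, and the values by length were not separated from it.

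**Figure D3:**
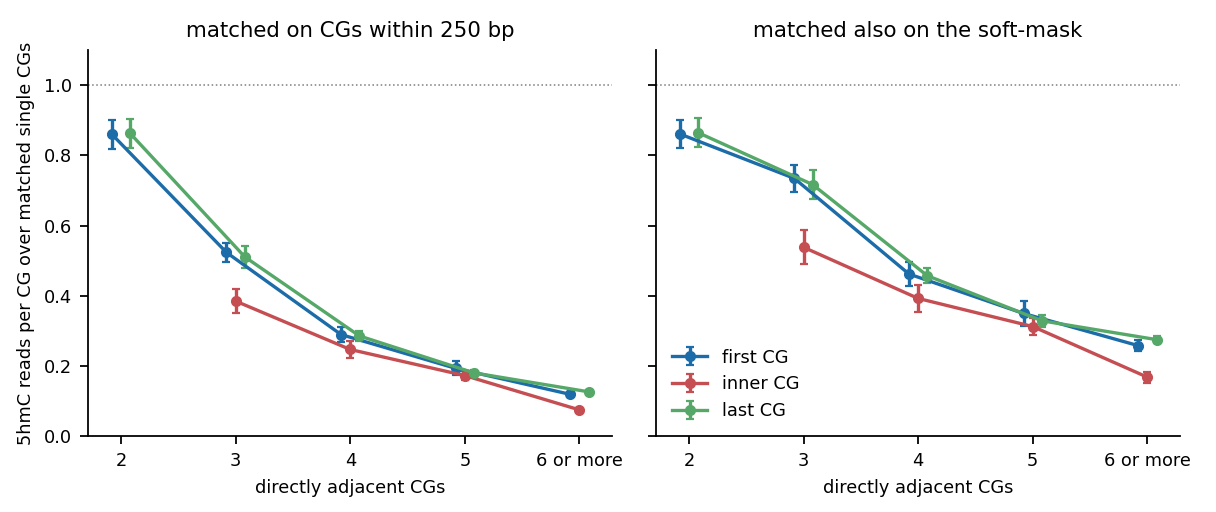
Ratio of 5hmC reads per CG to matched single CGs by the number of directly adjacent CGs, for first, inner and last CG, matched on the number of CGs within 250 bp (left) and also on the soft-mask of the reference (right). Points are means and whiskers SDs over 4 libraries. All points fall from pairs to runs of 6 or more, and they lie higher on the right.

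Reads were also counted CG by CG within runs of 1 length. In the 452 runs of exactly 8 CGs, 5hmC reads per CG from first to last were 0.29, 0.215, 0.176, 0.102, 0.102, 0.117, 0.164 and 0.26 (means of 4 libraries). The profile was high at both ends and lowest in the middle. In the 773 runs of 7 it had the same shape, from 0.324 at the first CG to 0.172 at the fourth and 0.301 at the last. The 1358 runs of 6 were flatter, from 0.244 to 0.284, with SDs of 0.060 to 0.085 over the libraries. The spread over libraries includes the higher depth at 500 ng.

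The level of both marks varied with CG density, and runs lay below single CGs at each density. Where a run CG had 2 to 9 other CGs within 250 bp, it had 0.364 5hmC reads, against 1.73 at matched single CGs. At 10 to 19 CGs it had 0.786 against 2.79, at 20 to 39 CGs 0.690 against 1.20, and at 40 to 110 CGs 0.0719 against 0.116. The ratio of runs to single CGs was 0.209, 0.279, 0.569 and 0.616 in this order. For uCG the levels were 0.161, 0.326, 1.03 and 1.03 reads per run CG against 1.16, 1.60, 2.43 and 1.82 at single CGs, with ratios of 0.139, 0.204, 0.424 and 0.569. In the densest sequence 5hmC was thus lowest at runs and at single CGs alike, while the uCG level of runs was the same as at 20 to 39 CGs.

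**Figure D4:**
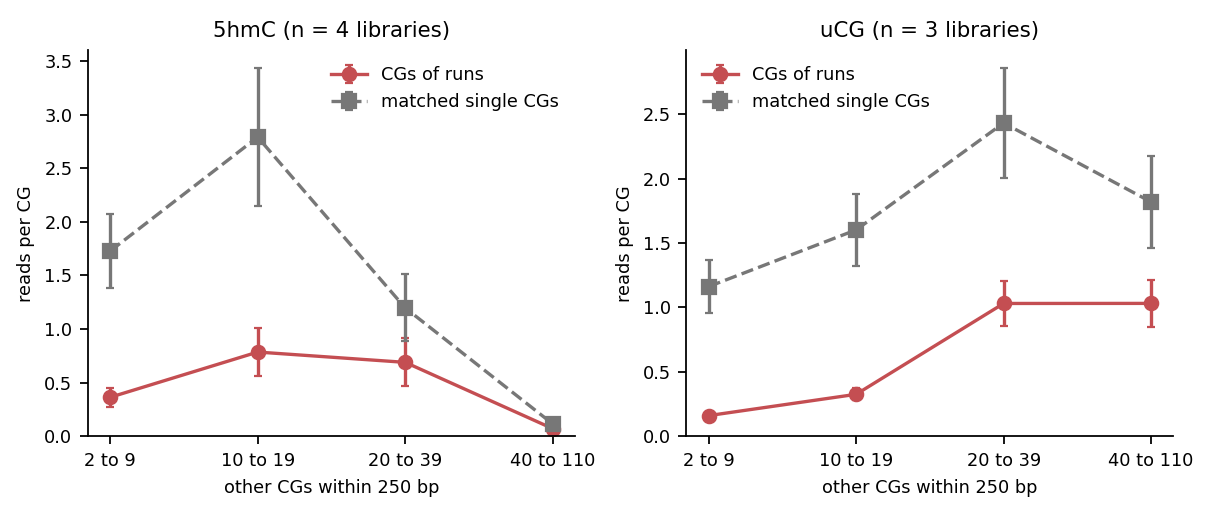
Reads per CG of runs and of matched single CGs by the number of other CGs within 250 bp, for 5hmC (left, 4 libraries) and uCG (right, 3 libraries). Points are means and whiskers SDs over libraries. Runs lie below single CGs in each bin, and 5hmC is lowest in the bin of 40 to 110 CGs.

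The ratio to single CGs also differed by gene part. In coding exons the 5hmC ratio was 0.907 ± 0.066 at the first, 0.623 ± 0.076 at the inner and 0.903 ± 0.021 at the last CG, with 1.90 reads at the first CG as a mean of the 4 libraries. Within 1 kb of a TSS the ratio was 0.868 ± 0.017, 0.50 ± 0.033 and 0.828 ± 0.054, at a level of 0.279 reads at the first CG. In introns it was 0.313 ± 0.017, 0.171 ± 0.016 and 0.314 ± 0.018, outside genes 0.429 ± 0.029, 0.233 ± 0.024 and 0.417 ± 0.025, and in the 375 runs of untranslated or other exons 0.493 ± 0.087, 0.258 ± 0.024 and 0.468 ± 0.048. The share of runs in repeats differs between these parts. When single CGs were matched also on the soft-mask, the ratio at the first CG was 0.461 in introns, 0.622 in untranslated or other exons, 0.649 outside genes, 0.907 in coding exons and 0.958 near a TSS.

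The base beside a run made a smaller difference. Outside soft-masked sequence, the ratio of the first CG to single CGs with the same preceding base was 0.887 ± 0.022 after A, 0.937 ± 0.053 after C, 0.738 ± 0.050 after G and 0.864 ± 0.071 after T (5hmC, n = 4 libraries). At the last CG it was 0.864 ± 0.036 before A, 0.781 ± 0.021 before C, 0.879 ± 0.049 before G and 0.810 ± 0.063 before T. As means of the 4 libraries the lowest of each set were G before and C after. At 50 ng T after the last CG was as low as C, at 0.760 against 0.764.

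First and last CG were also compared run by run, in edgeR (quasi-likelihood, library as block), over all runs, pairs and neighbouring single CGs with at least 10 reads. Of 4759 runs tested, 73 passed an adjusted p of 0.05 (Benjamini-Hochberg over all units tested), or 1.53%, 37 with the first CG higher and 36 with the last CG higher. Over all units tested the share was 3.74%, with 1.94% and 1.8% in either direction. Adjacent pairs were called at 0.989% and neighbouring single CGs 4 to 10 bases apart at 4.14%, so the share among runs was below that of all units. The differences between these shares were not tested. The direction was the same in each library for 32 of the 37 and 32 of the 36 runs. Of runs called with the first CG higher, 18.9% were soft-masked, and of those with the last CG higher 33.3%, against 44.6% of the runs tested. The count rested on both 500-ng libraries, since 12 of 3485 runs were called without replicate 1 of 500 ng (0.344%, against 0.750% of all units) and 12 of 3600 without replicate 2 (0.333%, against 0.788%). It was 202 by DESeq2, or 4.24% of runs against 8.36% of all units, shares that include the 3114 runs and 363125 units to which DESeq2 gave no adjusted p.

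The runs named here are those called with the same direction in each library and the largest fold change on either side. At chr4:153679345-153679350, 3 CGs outside genes, the first CG had 25, 10, 3 and 4 reads in replicates 1 and 2 of 500 ng and of 50 ng, and the last CG had none. Its reads, 42 against 0, make the first CG at least 14-fold higher, taking 3 reads over the 4 libraries as the limit for a count of 0 (edgeR adjusted p = 0.0112). At chr11:8773544-8773553, 5 CGs in a repeat outside genes, the first CG had 14, 11, 8 and 11 reads and the last CG 1 read in all (44-fold, exact binomial 95% interval 7.5 to 1780, which covers counting error only; edgeR adjusted p = 0.0126). In an intron of Rnf144b, which encodes an E3 ubiquitin ligase, a run of 5 CGs had 26, 22, 16 and 2 reads at the first CG and 1, 1, 0 and 0 at the last (33-fold, interval 8.78 to 278; edgeR adjusted p = 0.00298). In the untranslated region of Tmc8, a transmembrane channel-like protein gene, a run of 3 had 22, 5, 23 and 7 reads at the first CG and 2, 0, 0 and 0 at the last (28.5-fold, interval 7.54 to 241; edgeR adjusted p = 0.00507). A run of 3 CGs in a repeat at chr5:118340278-118340283, had 7, 9, 1 and 21 reads against 1, 0, 0 and 0 (38-fold, interval 6.42 to 1540; edgeR adjusted p = 0.0471). The first CG was the higher end in each of the 4 libraries at these runs. The 5-ng libraries were not part of this comparison. At chr11:8773544-8773553 their replicate 1 had 0 reads at the first and 13 at the last CG, and replicate 2 had 47 and 0.

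The opposite pattern was found at runs of 3 to 10 CGs, with reads at the last CG and none at the first. Inner CGs of these runs held reads too. In the libraries of 500 and 50 ng the whole Pla1a run below had 24, 15, 31 and 13 reads. The whole Gga3 run had 19, 15, 14 and 8. In an intron of Phf19, a Polycomb-associated PHD finger protein gene, the run at chr2:34913430-34913435 had 11, 20, 5 and 19 reads at the last CG and none at the first, at least 18.3-fold higher (edgeR adjusted p = 6.85e-04). A run of 3 outside genes at chr4:133200507-133200512 had 11, 13, 13 and 12 reads at the last CG and none at the first, at least 16.3-fold (edgeR adjusted p = 0.00120). In an intron of Pla1a, a phospholipase A1 gene, the 7 CGs at chr16:38408584-38408597 had 13, 6, 14 and 9 reads at the last CG and none at the first, at least 14-fold (edgeR adjusted p = 0.00422). In an intron of Gga3, which encodes an adaptor of sorting at the trans-Golgi, the 10 CGs at chr11:115600883-115600902 had 12, 5, 14 and 4 reads at the last CG and none at the first, at least 11.7-fold (edgeR adjusted p = 0.0141). The 6 CGs at chr11:117918983-117918994 in a TG repeat had 18, 14, 11 and 1 reads at the last CG and none at the first, at least 14.7-fold (edgeR adjusted p = 0.00715). In the Pla1a run the CA repeat stands before the first CG, the end with no reads. At chr11:117918983-117918994 TG repeats stand on both sides, also beside the last CG that held reads. Whether the side of a repeat goes with the end without reads was not tested.

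Coverage of uCG was also lower in runs, and it was split by strand in a way that 5hmC counts cannot show. The 3 uCG libraries had 0.706, 0.594 and 0.504 reads per run CG against 2.02, 1.65 and 1.41 at matched single CGs, a ratio of 0.355 ± 0.006 (SD, n = 3; log2 -1.49, below 0 in 3 of 3, exact permutation p = 0.25, the smallest that 3 libraries allow). With the strands summed, the first CG was at a ratio of 0.570 ± 0.012, the inner CGs at 0.276 ± 0.005 and the last CG at 0.263 ± 0.002. Over all runs the first exceeded the last CG by 1.11 on the log2 scale, on each of the 19 autosomes between 0.94 and 1.24. The gap narrowed with length. First and last CG had 1.16 and 0.498 reads in runs of 3 and 0.759 and 0.423 in runs of 4. They had 0.391 and 0.259 in runs of 5 and 0.277 and 0.266 in runs of 6 or more. In the latter the inner CGs were at a ratio of 0.0746, below the last CG at 0.172. By kind of sequence the ratio over all CGs of a run was 0.559 outside soft-masked sequence with no CA or TG repeat near, 0.494 in soft-masked sequence without one, 0.418 outside it with one and 0.220 in soft-masked sequence with one.

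Most of the difference between first and last uCG coverage of runs lay on the plus strand. The plus strand had 43.2% ± 0.9 (SD, n = 3) of the uCG reads at the first CG, 1.56% ± 0.23 at inner CGs and 6.04% ± 0.34 at the last CG, against 49.2%, 49.3% and 48.6% of those at all single CGs in the 3 libraries. As a difference of logits, the plus share at the first CG was above that at the last by 2.47, in 3 of 3 libraries (exact permutation p = 0.25). In reads, the plus strand had 0.425 ± 0.080 per first CG, 0.00727 ± 0.0021 per inner CG and 0.0273 ± 0.0046 per last CG, while the minus strand had 0.556 ± 0.085, 0.451 ± 0.073 and 0.426 ± 0.075. All single CGs, unmatched, had 0.568 ± 0.103 plus and 0.589 ± 0.101 minus reads. Over all runs the minus strand differed as well. It had 0.641, 0.557 and 0.471 reads at the first and 0.506, 0.416 and 0.357 at the last CG in the 3 libraries. This direction held in runs of 3, at 0.699 and 0.468. It was reversed in runs of 4 (0.328 and 0.394), of 5 (0.147 and 0.245) and of 6 or more (0.0296 and 0.262). The plus share at the first CG was 39.5%, 56.9%, 62.5% and 89.4% in runs of 3, 4, 5 and 6 or more. In adjacent pairs the larger part of the difference between first and last CG was on the minus strand. It had 1.39 against 0.440 reads per CG, and the plus strand 0.430 against 0.0326. Pairs had 23.7% ± 1.1 plus reads at the first and 6.88% ± 0.29 at the last CG.

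Minus-strand reads were highest next to the end of the run. In runs of 4 CGs the minus strand had 0.328, 0.300, 0.602 and 0.394 reads per CG from first to last (means of 3 libraries), and in runs of 5 CGs 0.147, 0.113, 0.207, 0.408 and 0.245. In runs of 8 CGs it rose from 0.00516 at the first CG to 0.291 at the seventh, with 0.236 at the eighth. The next-to-last CG was the highest in all 3 libraries at each length from 4 to 8, and in 2 of 3 libraries in runs of 3, where replicate 3 was highest at the first CG. Plus-strand reads fell mostly on the first CG, with 88.6% to 97.4% of the plus reads of a run there at each length from 2 to 8 in each library. Since a run is its own reverse complement, a mirror image would exchange the strands between opposite ends. Plus reads at the first CG and minus reads at the last CG did have this form, at 0.425 and 0.426 reads per CG over all runs. Minus reads at the first CG (0.556) and plus reads at the last (0.0273) did not, nor did minus and plus reads at inner CGs (0.451 and 0.00727).

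**Figure D5:**
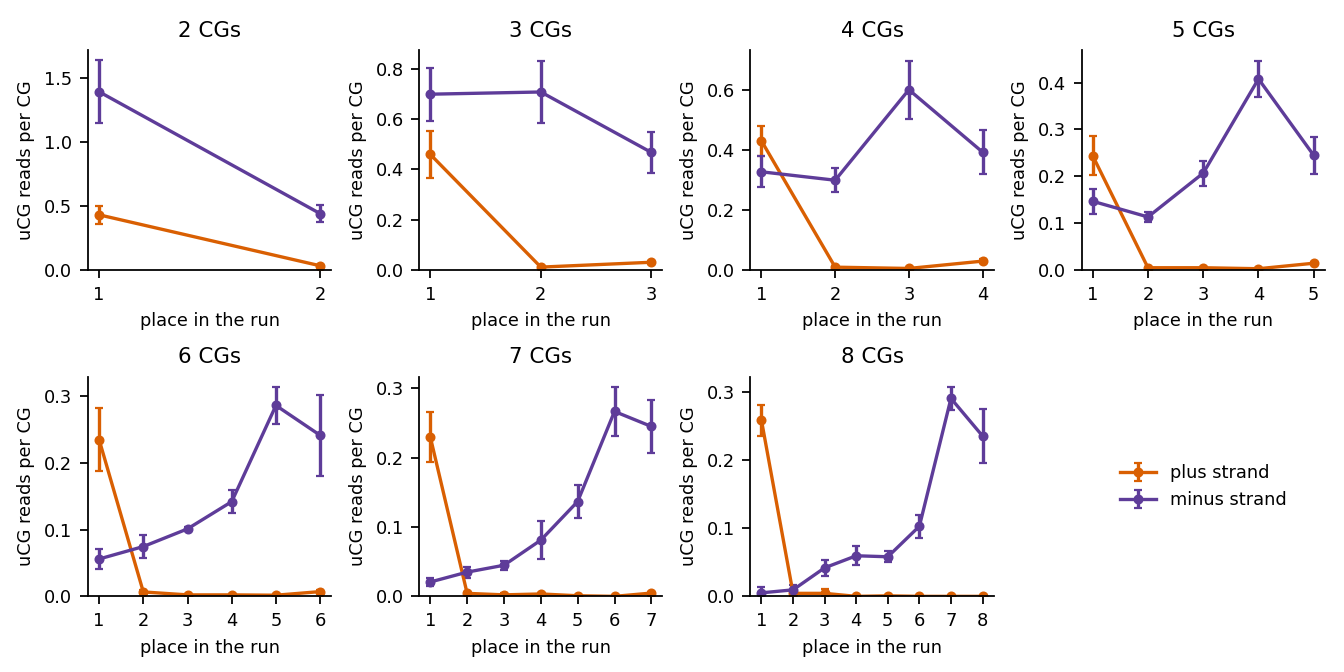
Reads per CG of uCG on the plus and the minus strand by place in chains of 2 to 8 directly adjacent CGs, as means with SDs over 3 libraries. Plus reads stand at the first CG in each panel, and minus reads peak at the next-to-last CG from 4 CGs on.

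At neighbouring single CGs both strands were close to mirror images. For CGs 3 bases apart, the left CG held 73.3%, 73.2% and 73.2% of the plus reads of the pair in the 3 libraries and 26.3%, 26.4% and 25.7% of the minus reads. The share did not change steadily with distance. It was near even at 8 bases, with 51.1%, 50.5% and 51.9% of the plus reads on the left, and uneven again at 10 bases, with 69%, 68% and 69% of the plus and 31%, 32% and 30% of the minus reads. At 13 bases it was 50.9%, 50.8% and 50.6% of the plus reads. At 15 bases it was turned around, with 44%, 45% and 44% of the plus and 55%, 55% and 56% of the minus reads on the left. For 5hmC, with strands merged, the left of 2 neighbouring CGs held between 49.7% and 50.2% of the reads at each spacing up to 30 bases as a mean of the 4 libraries. The part of read assignment in the strand pattern of directly adjacent CGs was not tested.

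Run by run, the strands of uCG differed in many runs. Of 9060 runs with at least 10 uCG reads, 1645 passed an adjusted p of 0.05 in edgeR (18.2%), 38 with the plus and 1607 with the minus strand higher. The share over all units tested was 9.01%, with 3.41% for plus and 5.6% for minus. Adjacent pairs had 290 plus and 11416 minus calls among 78260, and neighbouring single CGs 17291 and 15960 among 429783, so minus calls prevailed where CGs are directly adjacent. The direction held in each library for all 38 plus and 1601 of the 1607 minus runs. The count rested on each library, with 133 of 5710 runs called without replicate 1 (2.33%, against 1.21% of all units), 219 of 6327 without replicate 2 (3.46%, against 1.87%) and 363 of 6845 without replicate 3 (5.30%, against 2.91%), and minus runs made up most of them in each case (129, 215 and 355).

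Of the runs called by strand, 38 had the plus strand higher, and those with the largest fold change are named here. At chr3:5860820-5860825, outside genes, the plus strand had 67, 61 and 28 reads and the minus strand none, at least 52-fold higher (edgeR adjusted p = 3.88e-16), and most of the plus reads, 51, 49 and 24, were at the first CG. The run at chr5:132544094-132544099, at -2273 from a TSS of Auts2, had 18, 15 and 14 plus reads and no minus read, at least 15.7-fold (edgeR adjusted p = 4.93e-04). A run in introns of Aldh7a1 and of the longer transcripts of Phax, at -144 from another TSS of Phax, which encodes an adaptor of snRNA export, had 10, 22 and 11 plus reads and no minus read, at least 14.3-fold (edgeR adjusted p = 0.00106). At the Auts2 and Phax runs the first CG held all plus reads but 1.

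The named minus runs lay near gene starts or in a noncoding RNA gene. The 4 CGs at chr6:31216874-31216881 in Lncpint, a p53-induced long noncoding RNA, had 54, 37 and 38 minus reads and no plus read, at least 43-fold (edgeR adjusted p = 5.05e-13). At -26 from a TSS of E030030I06Rik, the run at chr10:22149294-22149299 had 38, 49 and 9 minus reads, of which 32, 45 and 9 were at the last CG, at least 32-fold (edgeR adjusted p = 6.20e-08). At -193 from a TSS of Hipk3, a homeodomain-interacting protein kinase gene, a run of 3 had 46, 17 and 21 minus reads, of which 40, 11 and 14 were at the first CG, at least 28-fold (edgeR adjusted p = 5.64e-07). The 5hmC reads of these 3 runs were at most 2 in any 500-ng library, and at 50 ng the E030030I06Rik run had 7 in replicate 2 and the other runs none.

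The inputs were compared run by run. In edgeR with TMM, 0 of 6763 runs with at least 10 reads passed an adjusted p of 0.05 between 50 and 500 ng, and 0 of all 670936 units (0%). At an unadjusted p under 0.05 there were 481 runs and 41680 of all units, and DESeq2 called 0. Without replicate 1 of 50 ng 249 runs were called (4.37%, against 4.59% of all units) and without replicate 2 452 (7.81%, against 7.34%), where a lone 50-ng library is taken to vary like the 500-ng libraries. Reads per run correlated between replicates with a Pearson r of 0.905 for 500 ng of DNA, 0.686 for 50 ng and 0.213 for 5 ng, and of 0.906 to 0.914 between the uCG libraries, and with a Spearman rho of 0.686, 0.497, 0.247 and 0.655 to 0.678 in the same order, across 40134 runs that share library and depth. At 500 ng 34.1% and 33.5% of runs had at least 1 read, at 50 ng 18.5% and 19.1%, and at 5 ng 6.20% and 6.17%. The 1% of runs with the most reads held 22.3% and 21.9% of all run reads at 500 ng and 49.0% and 51.7% at 5 ng.

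The highest 5hmC coverage was in ribosomal-RNA-related sequence on chromosome 17. The run at chr17:39847882-39847887, within the genes Gm42418 and AY036118 and the RefSeq entry Rn18s-rs5 (18s RNA, related sequence 5), had 409 and 325 reads in the 500-ng libraries, or 122 per CG. It had 194 and 200 reads in the 50-ng and 88 and 53 in the 5-ng libraries. Its uCG reads were 49, 40 and 18 on the plus and 334, 315 and 224 on the minus strand. The run at chr17:39843186-39843191 in the noncoding RNA gene Gm26917 had 198 and 180 reads at the first CG and 35 and 28 at the last at 500 ng, and 152 and 159 against 34 and 24 at 50 ng. This is 5.69-fold more reads at the first CG (exact binomial 95% interval 4.69 to 6.97, counting error only; edgeR log2 2.51, adjusted p = 4.82e-23). In the same gene the run at chr17:39843779-39843784 had 106 and 92 against 28 and 33 reads at 500 ng (edgeR log2 1.69, adjusted p = 2.0e-05), whereas that at chr17:39844344-39844349 had 42 and 30 against 70 and 58 (edgeR log2 -0.77, adjusted p = 0.24). The remaining run of the 5, at chr11:3193287-3193292 in an intron of Sfi1, a centrin-binding protein gene, had 214 and 251 reads at 500 ng. These 5 runs were chosen by these reads, and copies of such sequence elsewhere in the genome were not examined.

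Among the 5 longest runs, 3 had 5hmC reads, in at most 3 of the 6 labeled libraries each. The 18 CGs at chr10:52396481-52396516, in an intron of Nepn, which encodes the small leucine-rich proteoglycan nephrocan, had no 5hmC read in any labeled library and 2 uCG reads, both on the minus strand at the last CG in replicate 3. The 17 CGs at chr17:24030833-24030866 had 3 and 3 reads at 500 ng and 0 and 15 at 50 ng, with all 15 at the first CG. Of the 3 runs of 16 CGs, that in an intron of Glrb, the glycine receptor beta subunit gene, had no read in any library. That in an intron of Sox5, a SOX transcription factor gene, had 31 5hmC reads in replicate 2 of 5 ng and none at the other inputs, with 1, 1 and 6 uCG reads on the minus strand, and that at chr12:8470055-8470086 had 8 5hmC reads in replicate 1 of 500 ng and no other read. All 5 were soft-masked, and a count of 0 in such sequence does not show that 5hmC is absent there.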

How the data were processed

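The authors deposited read counts per CG of the mm10 genome, not normalized but made after filters: the 5hmC reads had to pass a length and a mapping quality minimum, and PCR duplicates were removed by start and length, so reads in repeats that map to several places can be missing. For uCG these filters are not given in the sources used here. Counts are per library with both strands merged for hmTOP-seq, and by strand for uTOP-seq, where a CG not listed was taken as 0. Total deposited counts were 14884939 to 32502791 in the labeled libraries, 3409 to 10072 in the controls and 20120568 to 28412885 in the uCG libraries, and counts of technical replicates carry their technical spread only. Listed positions equal the CGs of GRCm38 and are printed counted from 1. Runs and lists were chosen with earlier results of these data known.

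Reads per CG were set against single CGs with the same number of other CGs within 250 bp, as a log2 ratio per library, with two-sided exact sign-flip permutation tests. Units with at least 10 reads were tested in edgeR 4.0.16 (quasi-likelihood, R 4.3.3, Benjamini-Hochberg), with library totals as offsets and the library as a block for ends and strands, and with TMM for inputs. DESeq2 1.42.0, other windows (100 and 500 bp), a cap of 20 reads, other filters, matching on the soft-mask and omitted libraries were alternatives. Other steps used Python 3.11.15 with pandas 2.3.3. Genes are from GENCODE M21 and gene descriptions from RefSeq. Named runs were the 5 longest, the 5 with the most 5hmC reads per CG at 500 ng, and, among called runs with 1 direction in each library, up to 5 per direction by place and 3 by strand with the largest log2 fold change. On simulated counts at 10 or more reads, 16-fold differences were recovered in 14.1% of changed units for place and 0% for strand and for input, and 256-fold differences in 98.5%, 93% and 96%.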

Additional observations from a re-analysis of the deposited data

Results flagged for a closer look

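The difference between first and last CG of runs took the opposite sign at 5 ng. On the log2 scale the first CG was above the last by 0.0275 at 500 ng and by 0.0329 at 50 ng, and below it at 5 ng, at -0.0608 (means of 2 libraries each). Every library of 500 and 50 ng was above 0 and both libraries of 5 ng were below it. The difference between inputs was not tested, and the 5-ng replicates correlated at a Pearson r of 0.213 over the reads of 40134 runs.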

How the results depend on the processing

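Of 92 alternative values of the log2 ratios, 91 kept their direction and their side of the threshold, which no exact test here could pass. The first CG against single CGs ranged from -1.48 to -0.19, the inner CGs from -2.42 to -0.64 and the last CG from -1.43 to -0.25, each nearest 0 among runs with no CA or TG repeat near that were matched also on the soft-mask, an alternative chosen after seeing the data. Ends against inner CGs ranged from 0.27 to 0.70, uCG of runs against single CGs from -1.53 to -0.85, and the difference of logits of the plus share from 2.30 to 2.52. First against last CG reversed at 5 ng, to -0.0608, and the cause was not tested.

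Counts of called runs moved more. For place (73), a filter of at least 1 read gave 40 of 16144 runs (0.248%, against 1.16% of all units), the 500-ng libraries alone 0 of 3008 (edgeR, 303 at an unadjusted p under 0.05, and 0 of all 468394 units), the 50-ng libraries alone 2 of 2074 (0.0964%, against 0.0682%), DESeq2 202 (4.24%, against 8.36%, with no adjusted p for 3114 of 4759 runs), and leaving out 1 library 12 (0.344% and 0.333%, against 0.750% and 0.788%) to 78 (2.0%, against 4.54%). For strand (1645), the filter gave 770 of 24377 (3.16%, against 1.36%), DESeq2 2310 (25.5%, against 13.6%, with no adjusted p for 4088 of 9060 runs), and leaving out 1 library 133 (2.33%, against 1.21%) to 363 (5.30%, against 2.91%). For input (0), leaving out 1 library gave 0 to 452 (7.81%, against 7.34%). Fewer libraries leave fewer runs to test, and the other causes were not tested. The replicate numbers of 500 and 50 ng did not pair the libraries (r of replicate differences 0.0106 over 6763 runs), and with the replicate number as a block 70 runs were called for place (1.47%, against 3.62%) and 0 for input (edgeR, 172 runs at an unadjusted p under 0.05). Differences of 16-fold at runs of few reads were mostly under what these depths could call.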
